A study of Mus musculus with 12 samples.

Results

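The genes described here make, recycle and use nicotinamide adenine dinucleotide (NAD) in mouse inguinal white adipose tissue (iWAT). They were chosen by gene symbol from the table of read counts: 10 of its 23420 genes, namely Nampt, Nmnat1, Nmnat3, Nadk, Nnt, Nnmt, Cd38, Sirt1, Sirt3 and Sirt5. All 10 passed the filter on low counts and are among the 15306 genes tested. The study asked how deletion of hypoxia-inducible factor 2α (HIF2α, encoded by Epas1) in adipocytes alters iWAT upon cold. RNA-seq was carried out on 12 libraries, with 4 groups of 3 mice. HIF2a loxP/loxP alleles were present in every mouse; Cre was absent from WT, and HIF2α AKO had Adipoq-Cre, whose promoter is known to act in adipocytes, so other cells of the depot keep the alleles intact. All mice were C57BL/6 males of 10 weeks, kept either at thermoneutrality (TN, 30 °C) for 1 week or in the cold (4 to 6 °C) for 3 days.

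NAD carries electrons between enzymes and is also consumed as a substrate. Nampt makes nicotinamide mononucleotide from nicotinamide, Nmnat enzymes turn it into NAD, and Nadk phosphorylates NAD to NADP. Cd38 and the sirtuins, which remove acetyl and other acyl groups from proteins, split NAD and release nicotinamide, and Nnmt methylates nicotinamide so that it is lost to the salvage route. Sirt1 works mainly in the nucleus, Sirt3 and Sirt5 in mitochondria, where Nnt uses the proton gradient to make NADPH. In adipose tissue these genes are known for their links to fuel oxidation, inflammation and thermogenesis.

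Each library held 22368316 to 35204631 reads assigned to genes. Values are read counts scaled to the size of each library (CPM), with TMM factors that adjust for library composition. The adipocyte markers Adipoq and Plin1 were detected in every library, at a lowest mean of 1349 CPM for Adipoq and 871 CPM for Plin1, both in TN WT, and Ucp1, the uncoupling protein of thermogenic fat, rose from 0.432 CPM in TN WT to 2638 CPM in cold WT. The whole-gene level of Epas1 did not fall in the libraries labelled HIF2α AKO: it was 360 ± 76.8 CPM in TN WT and 348 ± 53.8 in TN HIF2α AKO, and 627 ± 101 in cold WT against 826 ± 139 in cold HIF2α AKO (SD, n = 3). These counts run over the whole gene and are not a check of the deleted exon, so each genotype comparison below rests on the labels. The paper reports lower Hif2a (Epas1) mRNA in iWAT of its HIF2α AKO mice, a measurement not made on these counts. Summed skeletal muscle markers reached 1930 CPM in TN HIF2α AKO replicate 2 and 1664 CPM in cold HIF2α AKO replicate 1 against at most 113 CPM in the other libraries, and summed epithelial markers reached 253 CPM in TN WT replicate 3 against at most 9.40 CPM elsewhere.

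Upon cold, Nampt, Nmnat1, Nadk, Nnmt and Sirt3 rose in WT iWAT, and Nnt and Sirt1 fell. These 5 higher and 2 lower of the 10 genes were called by edgeR's quasi-likelihood test (adjusted p under 0.05), against 21.3% of all tested genes called, 15.6% higher and 5.68% lower. In HIF2α AKO iWAT, Nampt, Nmnat1, Nmnat3, Nadk and Sirt3 rose and Nnt, Cd38 and Sirt1 fell, 8 of 10 in all, against 27% of tested genes, of which 15.6% of those tested were higher and 11.5% lower. The median log2 change of the 10 genes was 0.66 in WT and 0.71 in HIF2α AKO, and that of all tested genes was -0.03 and -0.05. The 3 cold and 3 TN values did not overlap for 8 of the 10 genes in WT, where 42% of tested genes did not overlap, and for all 10 in HIF2α AKO, where the share was 50.5%. The 10 genes were chosen with earlier results of these data known. Their differences from all tested genes are therefore no independent evidence about NAD genes. With 3 mice against 3, the smallest p of the two-sided exact permutation test of a single gene was 0.1, which every gene without overlap reached. Per-gene p-values therefore come from the fit over all genes.

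**Figure D1:**
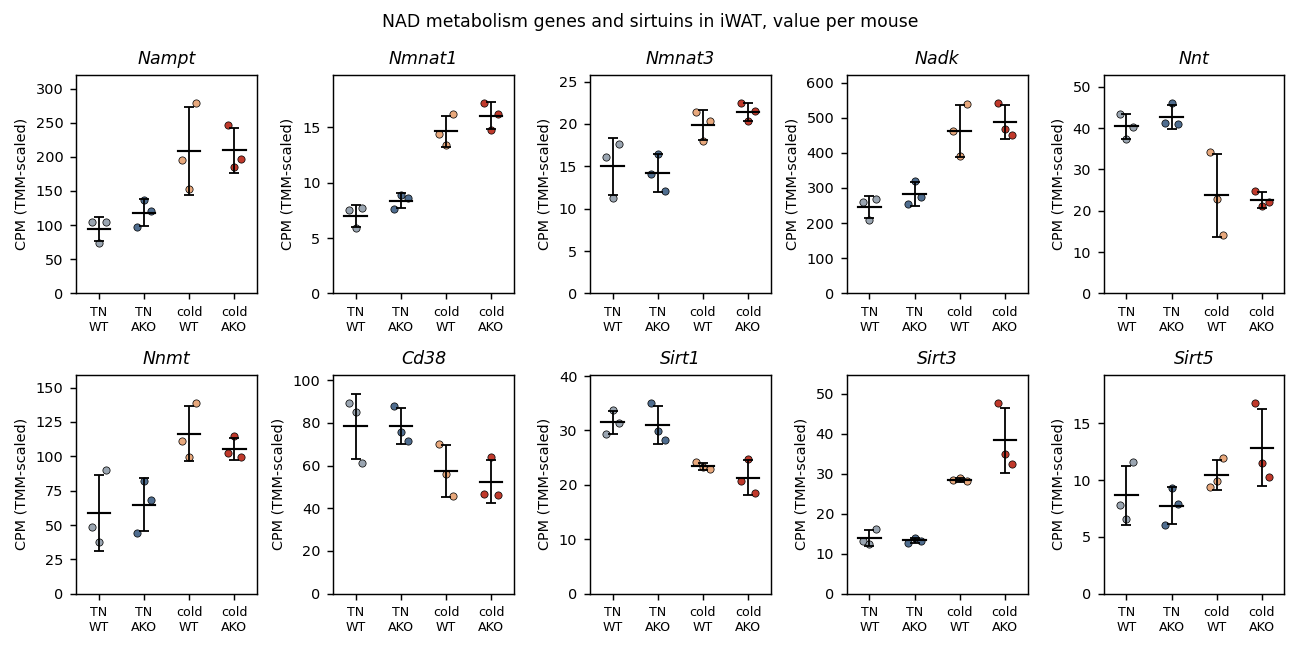
Level of each of the 10 genes in CPM (vertical axis from 0, TMM-scaled) in each mouse of the 4 groups; points are mice, the line is the mean and the bar the SD (n = 3). Nampt, Nmnat1, Nmnat3, Nadk, Nnmt and Sirt3 are higher in each cold mouse than in any TN mouse. Nnt and Sirt1 are lower in each cold mouse than in any TN mouse.

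Nampt, the rate-limiting enzyme of NAD salvage, stood at 104, 74.2 and 105 CPM in the TN WT mice and at 196, 152 and 279 CPM in the cold WT mice. In HIF2α AKO it stood at 97.0, 136 and 121 CPM at TN and at 247, 185 and 197 CPM in the cold. The lowest cold value, 152 CPM, lay above the highest TN value, 136 CPM. Nampt rose by 1.14 on the log2 scale (SE 0.23, 2.21-fold, edgeR adjusted p = 0.00669) in WT and by 0.83 (SE 0.23, 1.78-fold, edgeR adjusted p = 0.0228) in HIF2α AKO. The call in HIF2α AKO was lost without cold HIF2α AKO replicate 1, at a log2 change of 0.69 and an edgeR adjusted p of 0.0958, and also without TN HIF2α AKO replicate 1 (adjusted p = 0.0957) or replicate 3 (adjusted p = 0.0598). It was lost too without both libraries with muscle markers (edgeR adjusted p = 0.0898) and without those and TN WT replicate 3 (adjusted p = 0.0872).

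Nmnat1 encodes the nuclear enzyme of the last step to NAD. Its TN values ran from 5.89 to 8.92 CPM and its cold values from 13.4 to 17.2 CPM over both genotypes, with no overlap. It rose 2.08-fold in WT (log2 change 1.06, SE 0.14, edgeR adjusted p = 9.05e-04) and 1.91-fold in HIF2α AKO (log2 change 0.94, SE 0.13, edgeR adjusted p = 9.75e-04). Nmnat3, the mitochondrial counterpart, moved less: 16.1, 11.2 and 17.7 CPM in TN WT mice and 21.4, 18 and 20.4 CPM in cold WT mice, a log2 change of 0.41 (SE 0.17, edgeR adjusted p = 0.0968) that did not pass. In HIF2α AKO, Nmnat3 went from 14.1, 16.5 and 12.1 CPM to 22.5, 20.4 and 21.5 CPM and rose by 0.59 (SE 0.17, edgeR adjusted p = 0.0257). That call held under 16 of 22 alternatives, and it was lost without cold HIF2α AKO replicate 1 or 3, without TN HIF2α AKO replicate 1 or 3, without both libraries with muscle markers and with scaling by library size alone, where the Nmnat3 change was 0.33 (edgeR adjusted p = 0.0892). The difference between these Nmnat3 changes, the interaction of genotype and temperature, was 0.18 (95% interval -0.33 to 0.70) and did not pass.

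Nadk, the cytosolic NAD kinase, had the highest level of the 10 genes per kb of exon. It stood at 259, 209 and 269 CPM in TN WT, 254, 320 and 274 in TN HIF2α AKO, 462, 390 and 538 in cold WT and 541, 469 and 452 in cold HIF2α AKO. All 6 cold mice lay above all 6 TN mice. Nadk rose 1.89-fold in WT (log2 change 0.92, SE 0.15, edgeR adjusted p = 0.00291) and 1.72-fold in HIF2α AKO (log2 change 0.78, SE 0.15, edgeR adjusted p = 0.00518).

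Nnt, the mitochondrial transhydrogenase, went the other way. Its TN values were 43.5, 37.4 and 40.3 CPM in WT and 41.2, 46.0 and 41.0 CPM in HIF2α AKO, and its cold values were 34.3, 22.7 and 14 CPM in WT and 24.7, 21.0 and 22.1 CPM in HIF2α AKO. Every cold mouse was below every TN mouse, but the cold WT mice spread widely (23.7 ± 10.2 CPM, SD, n = 3). Nnt fell by 0.77 on the log2 scale (SE 0.24, edgeR adjusted p = 0.0406) in WT and fell by 0.92 (SE 0.24, edgeR adjusted p = 0.0183) in HIF2α AKO. Without cold WT replicate 3, the mouse at 14 CPM, the WT change was -0.50 (edgeR adjusted p = 0.0733) and was no longer called, and the WT call held under 9 of 22 alternatives in all. The HIF2α AKO call held under 17 of 22, and was lost without cold HIF2α AKO replicate 1 or 2, without TN HIF2α AKO replicate 1 and without both libraries with muscle markers, also when TN WT replicate 3 was left out with them. Nnt is known to carry a deletion in the C57BL/6J substrain; the labels name C57BL/6 only, and the counts over the whole gene do not tell which allele the mice carried.

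Nnmt, which clears nicotinamide by methylation, varied more among TN mice than the other genes: 48.9, 37.9 and 90.4 CPM in WT and 43.8, 82.2 and 68.2 CPM in HIF2α AKO. In the cold it stood at 111, 99.5 and 139 CPM in WT and at 103, 115 and 99.5 CPM in HIF2α AKO. Nnmt rose by 0.98 on the log2 scale in WT (SE 0.30, edgeR adjusted p = 0.041). In HIF2α AKO the log2 change was 0.70 (SE 0.30, edgeR adjusted p = 0.0982), which did not pass although the groups did not overlap. Without TN WT replicate 2, the mouse at 37.9 CPM, the WT change was 0.73 (edgeR adjusted p = 0.138), and without cold WT replicate 3, at 139 CPM, it was 0.84 (adjusted p = 0.144); the call held under 11 of 22 alternatives.

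Cd38, a surface enzyme that splits NAD and is abundant on immune cells, stood at 89.1, 84.9 and 61.1 CPM in TN WT and at 70.1, 56.1 and 45.8 CPM in cold WT, groups that overlapped. The log2 change was -0.45 (SE 0.19, edgeR adjusted p = 0.109) in WT. In HIF2α AKO it went from 87.7, 75.7 and 71.5 CPM to 46.9, 64.1 and 46.2 CPM without overlap and fell by 0.58 (SE 0.19, edgeR adjusted p = 0.0463), a call that held under 9 of 22 alternatives. The difference between these changes was -0.13 (95% interval -0.73 to 0.47). In the WT mice the summed macrophage markers stood at 3306, 3318 and 1941 CPM at TN and 3117, 2697 and 1554 CPM in the cold. Replicate 3 of each WT group was lowest in Cd38, in this sum and in the lymphocyte sum (1450 CPM at TN and 778 CPM in the cold). The macrophage markers had a median log2 change of -0.09 upon cold in WT, with 0 of 12 called. Their median was -0.65 in HIF2α AKO, with 3 of 12 called lower. The lymphocyte markers had a median of -0.65 in WT, with 1 of 10 called lower, and of -0.64 in HIF2α AKO, with 3 of 10. In HIF2α AKO the macrophage sum was 3325, 3000 and 3071 CPM at TN and 1734, 1873 and 2092 CPM in the cold. There, cold replicate 3 had the highest macrophage sum but the lowest Cd38. The HIF2α AKO lymphocyte sum was 1371 to 2222 CPM at TN and 794 to 1158 CPM in the cold. In bulk tissue, fewer cells of a type and less RNA per cell cannot be told apart, and the part of these cells in the Cd38 values was not tested.

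The 3 sirtuins differed from one another. Sirt1, the nuclear deacetylase, stood at 29.4, 33.7 and 31.3 CPM in TN WT and at 24.1, 23.2 and 22.8 CPM in cold WT, with 35.0, 29.9 and 28.3 CPM in TN HIF2α AKO and 20.6, 24.8 and 18.6 CPM in cold HIF2α AKO. Its cold values lay below its TN values in all mice. Sirt1 fell by 0.43 (SE 0.12, edgeR adjusted p = 0.0267) in WT and fell by 0.54 (SE 0.12, edgeR adjusted p = 0.00887) in HIF2α AKO, to 0.744 and 0.688 of the TN level. The WT call was lost without cold WT replicate 1 or 3, without TN WT replicate 2 and without the 3 libraries with muscle or epithelial markers (edgeR adjusted p = 0.0641). The HIF2α AKO call was lost without both libraries with muscle markers (edgeR adjusted p = 0.0594) and without those 3 libraries (adjusted p = 0.0651).

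Sirt3, the main mitochondrial deacetylase, had the largest rise of the 10 genes in HIF2α AKO. At TN it stood at 13.2, 12.5 and 16.2 CPM in WT and at 12.8, 13.9 and 13.3 CPM in HIF2α AKO. In the cold it stood at 28.3, 29 and 28.1 CPM in WT, a narrow range, and at 47.6, 35.0 and 32.5 CPM in HIF2α AKO. Sirt3 rose 2.04-fold in WT (log2 change 1.03, SE 0.14, edgeR adjusted p = 0.00124) and 2.88-fold in HIF2α AKO (log2 change 1.53, SE 0.14, edgeR adjusted p = 1.65e-04). Of its 5973 annotated exon bases, 342 overlap Psmd13 and 418 overlap Ric8a, both on the opposite strand, and since the strand setting of the counting is not given in the sources used here, reads in those bases are uncertain.

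Sirt5, which removes succinyl and malonyl groups in mitochondria, had the lowest level of these sirtuins per kb of exon and did not pass edgeR's test in either genotype. It stood at 7.84, 6.58 and 11.6 CPM in TN WT and at 9.40, 9.95 and 11.9 CPM in cold WT, overlapping groups with a log2 change of 0.27 (95% interval -0.28 to 0.81, edgeR adjusted p = 0.44). In HIF2α AKO it went from 6.04, 9.33 and 7.92 CPM to 16.8, 11.5 and 10.3 CPM, a log2 change of 0.73 (SE 0.25, edgeR adjusted p = 0.0522), with no overlap. It was called under 7 of 22 alternatives, among them the DESeq2 and limma voom tests. The mouse at 16.8 CPM is cold HIF2α AKO replicate 1, one of the libraries with muscle markers.

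**Figure D2:**
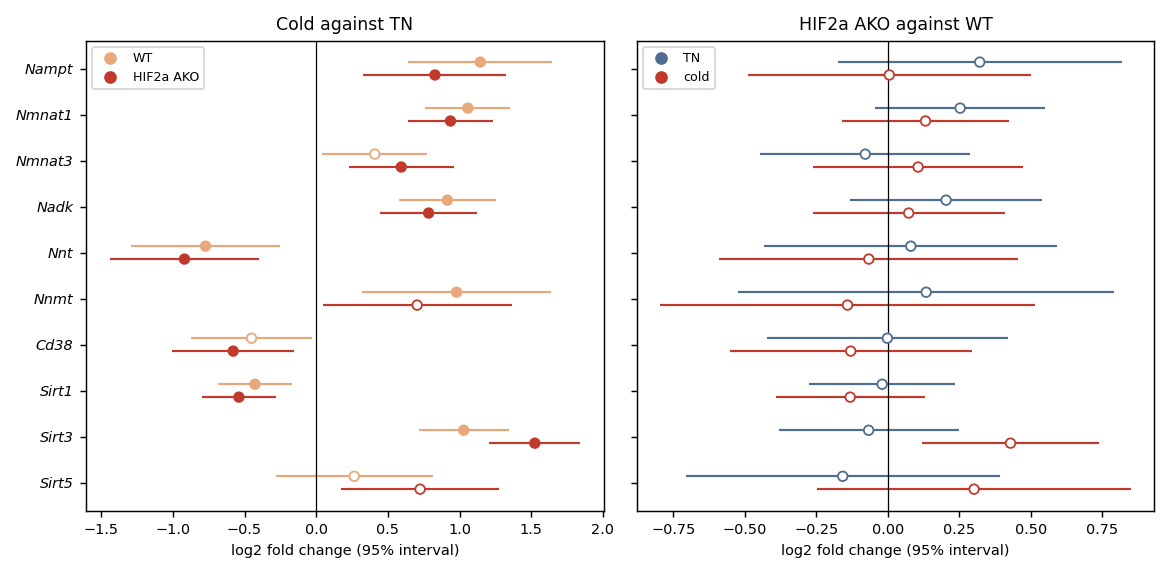
Log2 fold change (horizontal axis) with its 95% interval for each gene, cold against TN on the left (WT and HIF2α AKO) and HIF2α AKO against WT on the right (TN and cold); filled points have an edgeR adjusted p under 0.05. The left panel holds 7 filled points in WT and 8 in HIF2α AKO, and the right panel holds none.

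By genotype, none of the 10 genes was called by edgeR, DESeq2 or limma voom, and by edgeR 0 of 10 at TN and 1 of 10 in the cold, Sirt3, had an unadjusted p under 0.05. At TN, 1 of 15306 genes was called (0.00653%) and 446 had an unadjusted p under 0.05. In the cold it was also 1 gene (0.00653%), with 451 at an unadjusted p under 0.05, and over both temperatures 1 gene (0.00653%), with 557. DESeq2 called 8 genes at TN, 7 in the cold and 14 over both temperatures, and limma voom 2, 2 and 4, none of them among the 10; at an unadjusted p under 0.05 the 2 tools had 512 and 1473 genes at TN, 521 and 1177 in the cold and 639 and 1880 over both. The interaction of genotype and temperature gave 0 called genes (0%) by edgeR, with 327 at an unadjusted p under 0.05, and DESeq2 and limma voom gave 0 as well (380 and 813 at an unadjusted p under 0.05). If no gene differed, 765 of 15306 would be expected at an unadjusted p under 0.05. The edgeR and DESeq2 counts all lay below that number, and the limma voom counts all lay above it. At TN, the log2 differences of the 10 genes between HIF2α AKO and WT ran from -0.16 (Sirt5) to 0.32 (Nampt), and none of the 10 had groups that did not overlap, against 7.69% of tested genes. The 95% intervals reached from -0.71 to 0.82 at TN and from -0.80 to 0.85 in the cold over the 10 genes.

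In the cold, Sirt3 was the 1 gene of the 10 whose HIF2α AKO mice all lay above the WT mice, against 7.53% of tested genes with no overlap in either direction. The log2 difference was 0.43 (SE 0.14, 95% interval 0.12 to 0.74), with an edgeR adjusted p of 1. The interaction for Sirt3 was 0.50 (SE 0.20, 95% interval 0.05 to 0.94), again with an edgeR adjusted p of 1. Without cold HIF2α AKO replicate 1, the library with muscle markers and the highest beige and brown adipocyte marker sum (8582 CPM against 3350 to 5886 CPM in the other cold libraries), the difference was 0.24 and the interaction 0.31. Without the 3 libraries with muscle or epithelial markers the interaction was 0.23. By thresholds of the kind the study used, p under 0.15 before adjustment and a log2 change beyond 0.2 either way, Sirt3 passed in the cold as did 8.98% of tested genes. The study itself listed Sirt3 among genes that differed by genotype on these same libraries, so its direction here is no independent evidence. For Nampt in the cold the difference was 0.01 (95% interval -0.49 to 0.50), for Nadk 0.07 (-0.26 to 0.41), for Nnt -0.07 (-0.59 to 0.46) and for Sirt1 -0.13 (-0.39 to 0.13).

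Summed markers of several cell types differed between TN and cold libraries. The summed adipocyte markers stood at 5926 to 16407 CPM at TN and at 19588 to 37463 CPM in the cold, with 4 of 9 tested markers called higher in WT and 2 of 9 in HIF2α AKO. The markers in this sum did not move alike. Mean Fabp4 went from 3782 to 12550 CPM in WT and from 4248 to 12738 CPM in HIF2α AKO. Mean Adipoq went from 1349 to 1820 CPM in WT and from 1582 to 1571 CPM in HIF2α AKO. The beige and brown adipocyte sum went from 28.4 to 90.6 CPM at TN to 3350 to 8582 CPM in the cold, and the progenitor and fibroblast sum from 6081 to 8163 CPM to 3887 to 5311 CPM. TN WT replicate 2, which had the lowest adipocyte sum, also had the lowest value of 7 of the 10 genes among the 6 TN libraries. Cold WT replicate 3, which had the highest sum, had the highest Nampt and Nnmt and the lowest Nnt, Cd38 and Sirt3 of the 6 cold libraries. Cold HIF2α AKO replicate 1, with muscle markers, was highest for 5 genes in the cold, and cold WT replicate 2 was lowest for 4. At TN, HIF2α AKO replicate 2, with muscle markers, and WT replicate 3, with epithelial markers, were each highest for 4 genes. How often these libraries were extreme over all tested genes was not counted.

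**Figure D3:**
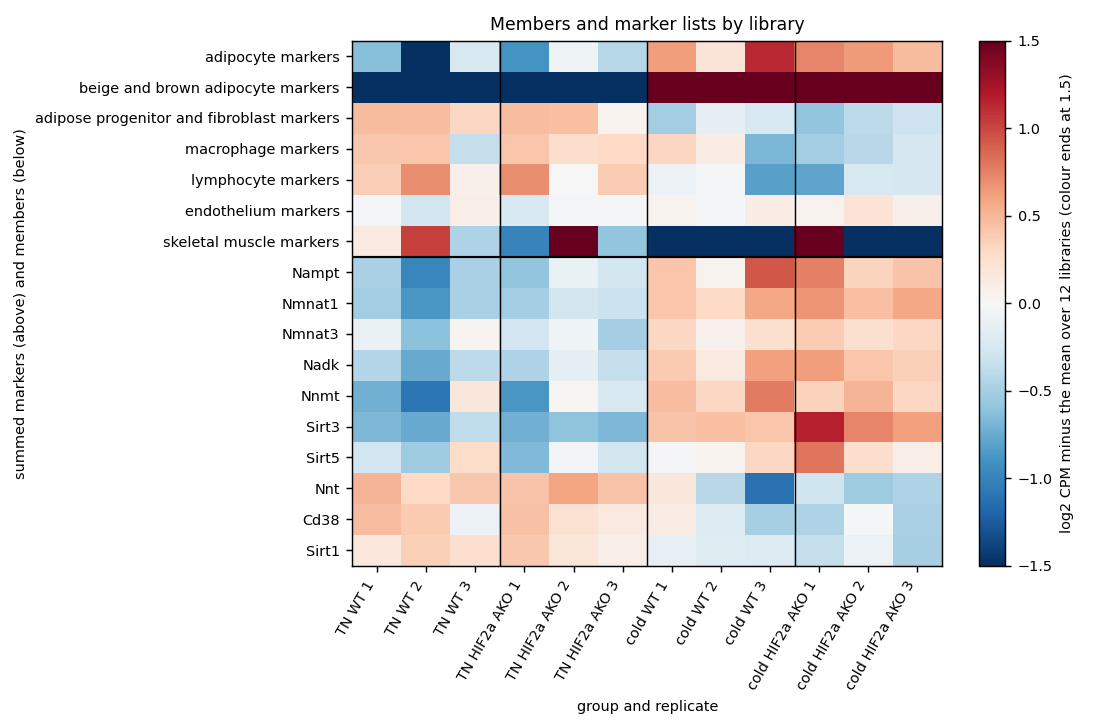
Log2 CPM minus the mean over the 12 libraries (colour, ending at 1.5 either way) for the summed markers of 7 cell types (upper rows) and the 10 genes (lower rows), by group and replicate. Nampt, Nmnat1, Nadk and Sirt3 are above their mean in all 6 cold libraries and below it in all 6 TN libraries, as is the adipocyte row in the cold, and Sirt1 is below its mean in all 6 cold libraries.

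The mean log2 CPM of the adipocyte markers itself rose by 1.2 in WT and 0.82 in HIF2α AKO upon cold. Set against that mean, most of the rises were no longer seen. Relative to that mean, Nampt differed between cold and TN by -0.08 in WT and 0.01 in HIF2α AKO, Nmnat1 by -0.14 and 0.11, Nadk by -0.29 and -0.03, and Nnmt by -0.14 and -0.07, each with overlapping groups. Sirt3 differed by -0.17 in WT and 0.68 in HIF2α AKO, also overlapping. Nmnat3 and Sirt5 lay below their TN values in WT without overlap, by -0.77 and -0.90, and by -0.22 and -0.11 with overlap in HIF2α AKO. Nnt (-2.06 in WT and -1.74 in HIF2α AKO), Cd38 (-1.65 and -1.41) and Sirt1 (-1.63 and -1.36) were lower in the cold in both genotypes with no overlap. A gene unchanged in CPM reads lower by 1.2 in WT and by 0.82 in HIF2α AKO on this scale. Nmnat3 and Sirt5 read lower by less than that in both genotypes. How many of all tested genes do not overlap on this scale was not counted. The scale was added after the data were seen, and whether the adipocyte markers track cell number or RNA per cell was not tested. Of the 9 markers, 4 were called higher upon cold in WT and 2 in HIF2α AKO, so their mean does not stand for each marker. A scale set by a single marker was not tested, and the relative values hold for this mean only.

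To compare levels between genes, CPM was divided by the summed length of the annotated exons in kb. In TN WT, Nadk was highest at 65.6 ± 8.60 CPM per kb (SD, n = 3), followed by Nnmt (37.5 ± 17.6), Cd38 (20.1 ± 3.88), Nampt (18.7 ± 3.48), Sirt1 (5.91 ± 0.403), Nnt (5.74 ± 0.430), Nmnat3 (3.00 ± 0.674), Sirt3 (2.34 ± 0.326), Nmnat1 (2.31 ± 0.326) and Sirt5 (1.42 ± 0.428). Neighbours whose mice overlapped in this order were Nadk and Nnmt, Cd38 and Nampt, Sirt1 and Nnt, Nmnat3 and Sirt3, and Sirt3 and Nmnat1. In cold WT the order was Nadk (124 CPM per kb), Nnmt (73.9), Nampt (41.3), Cd38 (14.7), Nmnat1 (4.82), Sirt3 (4.77), Sirt1 (4.39), Nmnat3 (3.98), Nnt (3.37) and Sirt5 (1.71). Some of these places depend on the length used: per kb of the longest transcript, Nmnat1 (5.51) lay below Nnt (6.84) in cold WT. By exon length, the Nnt mice (2.00 to 4.87) reached past the Sirt3 mice (4.71 to 4.86), and the lowest Nmnat1 mouse lay below the highest Sirt1 mouse (4.52). In cold WT the neighbours Nmnat1 and Sirt3, and Nmnat3 and Nnt, overlapped. In cold HIF2α AKO, Sirt3 (6.42 ± 1.35) came next in order after Cd38 (13.5 ± 2.61), without overlap, and overlapped with Nmnat1 (5.29 ± 0.404).

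**Figure D4:**
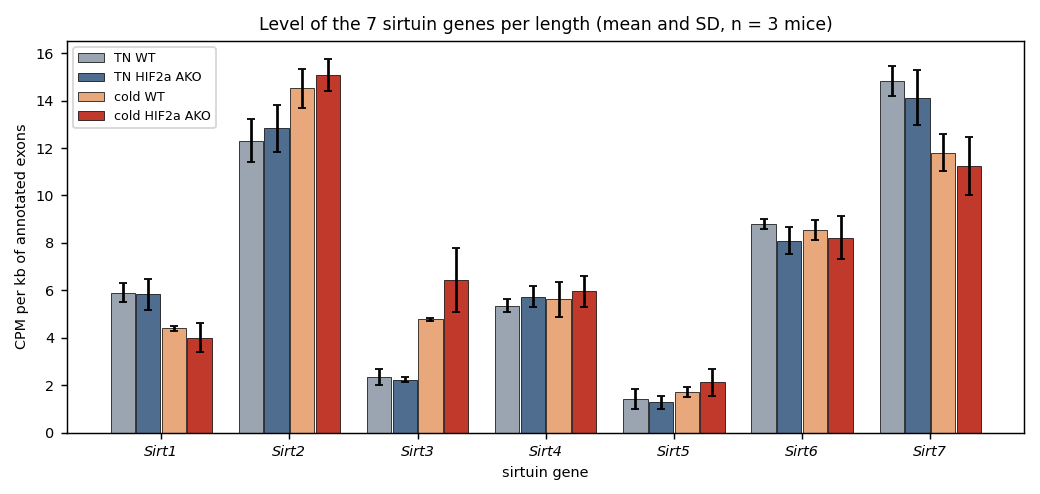
Level of the 7 sirtuin genes in CPM per kb of annotated exons (vertical axis from 0; bars are means and error bars SD of 3 mice) in the 4 groups. Sirt3 is the sirtuin that rises most upon cold, from 2.34 to 4.77 in WT, and Sirt2 and Sirt7 are the most abundant sirtuins in each group.

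Beyond these 10 genes, 44 of 46 listed genes of NAD and mitochondrial NADPH metabolism were in the table and 40 were tested. In WT, 6 were called higher and 3 lower upon cold, and in HIF2α AKO 5 higher and 4 lower, shares close to those of all tested genes. Their median log2 change was -0.11 in WT and -0.13 in HIF2α AKO, and none was called by genotype. Among the 10 tested genes of NAD synthesis, only Kmo, an enzyme of the route from tryptophan, was called in either genotype, and it fell by 0.81 in WT and 0.88 in HIF2α AKO (edgeR adjusted p = 0.0403 and 0.0268). Of the 4 other sirtuins, Sirt7, a nuclear sirtuin, fell by 0.33 in each genotype (edgeR adjusted p = 0.0386 and 0.0335), and Sirt2, Sirt4 and Sirt6 were not called. Of 13 other NAD-consuming enzymes, Parp4 fell by 0.39 in WT and 0.40 in HIF2α AKO (edgeR adjusted p = 0.0384 and 0.0292), and Parp14 fell by 0.79 in HIF2α AKO (edgeR adjusted p = 0.0221), with a log2 change of -0.39 in WT that did not pass (adjusted p = 0.196).

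Me3, Slc25a51 and Prdx3 had the largest changes of the 40 genes in both genotypes. Slc25a51, the carrier that brings NAD into mitochondria, rose by 1.76 in WT and 1.83 in HIF2α AKO (edgeR adjusted p = 6.15e-04 and 3.09e-04), from 109 ± 11.9 CPM in TN WT to 370 ± 87.4 CPM in cold WT. Of 9 genes that supply or use mitochondrial NADPH beside Nnt, 5 rose in WT and 4 in HIF2α AKO, and none was called lower, where 15.6% of all tested genes were called higher in each genotype. The list was chosen with earlier results of these data known and was not tested as a group. Prdx3, a mitochondrial peroxiredoxin, rose by 1.60 in WT and 1.43 in HIF2α AKO, and Txnrd2, the mitochondrial thioredoxin reductase, by 0.78 and 0.91. Idh2, the mitochondrial isocitrate dehydrogenase that makes NADPH, rose by 0.55 and 0.79, and Me3, a mitochondrial malic enzyme, by 1.78 and 2.42, though from a mean of 0.892 CPM in TN WT. Glud1, glutamate dehydrogenase, rose by 0.95 in WT (edgeR adjusted p = 0.0044), and its log2 change of 0.48 in HIF2α AKO did not pass (adjusted p = 0.0594). Per kb in TN WT, Prdx3 was the highest of the listed genes (61.0 ± 17.9 CPM per kb), with mice that overlapped Glud1 (55.9 ± 3.91), and Acmsd the lowest (0.00402 ± 0.00696). Per kb of the longest transcript, Glud1 (69.5) and Idh2 (62.6) lay above Prdx3.

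**Figure D5:**
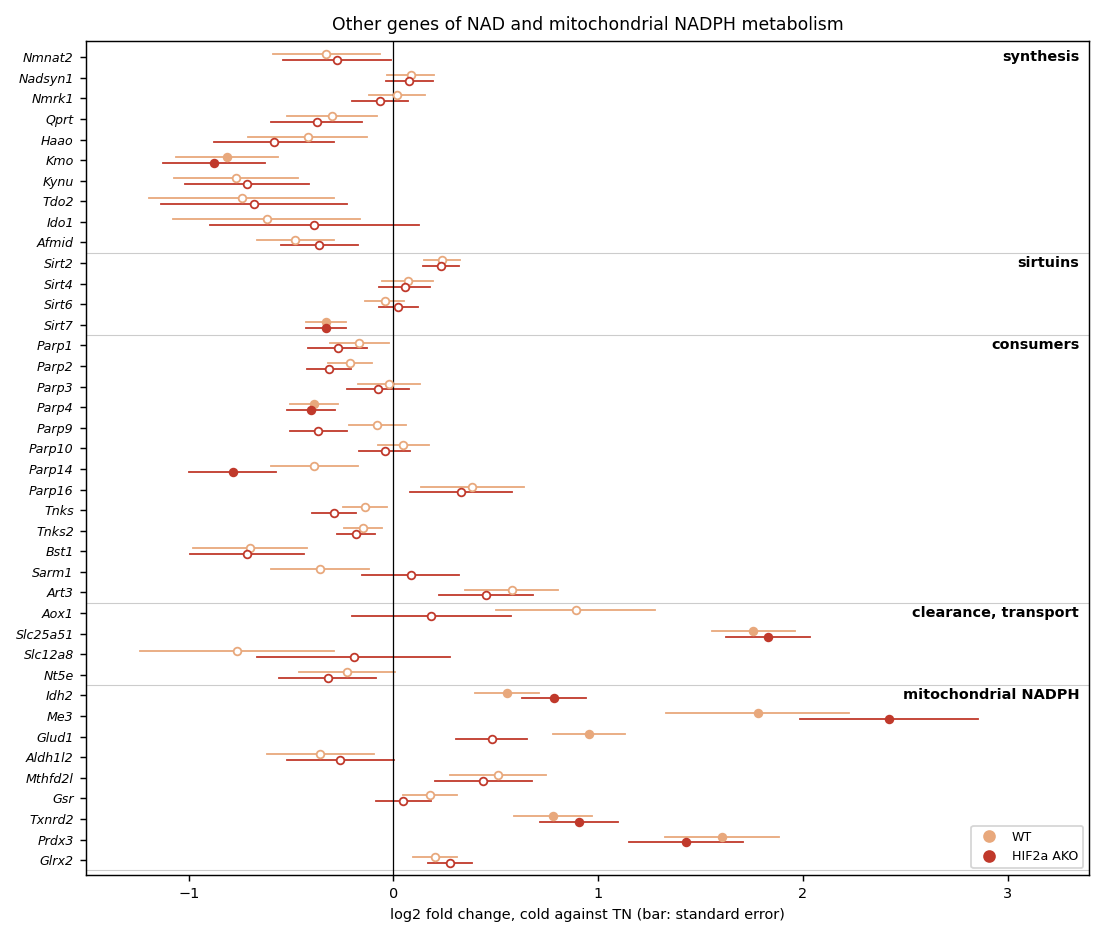
Log2 fold change upon cold (horizontal axis, bar: standard error) of the 40 tested genes of NAD and mitochondrial NADPH metabolism outside the 10 genes, by list, in WT and HIF2α AKO; filled points have an edgeR adjusted p under 0.05. Me3, Slc25a51 and Prdx3 lie furthest to the right, and most genes of NAD synthesis lie left of 0.

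The genes whose log2 CPM was most like each of the 10 over the 12 libraries are given as a description, since all share the same libraries and the step between TN and cold. For Nampt they were Trap1, Bckdha and Pcca (Pearson r 0.991 to 0.992), and for Sirt3 Stard7, Tomm5 and Rabggtb (r 0.994 to 0.995). Nmnat1 was most like Clpp, Eif3l and Uqcr10 (r 0.993), and Nadk like Urod, Crat and Lman2 (r 0.993 to 0.994). Nnt was most like Bmp7, Zfp81 and C4b (r 0.940 to 0.956), Cd38 like Tcp11l2, Tpd52 and Cxcr2 (r 0.956 to 0.969), and Sirt1 like Tug1, Dcaf17 and Rbm39 (r 0.977 to 0.980).

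Promoter sequences are shown for Nampt, Nadk and Sirt3, which rose upon cold, and for Sirt1, which fell. RefSeq promoters (GRCm38.p6), 250 bases before to 50 after each start site, were found for 8 of the 10 genes, at 11 start sites, and not for Nnmt and Nnt. They were searched on both strands for the cAMP response element TGACGTCA and its part TGACG, for ACGTG, the core of the HIF response element, for CACGTG, an E-box that contains ACGTG, and for AAGGTCA, bound by estrogen-related receptors. TGACG was found in 3 of 11 promoters and in 20.8% of the 32851 searched, and ACGTG in 4 of 11 and in 19.6%. CACGTG was found in 2 of 11 and in 7.15%, AAGGTCA in 2 of 11 and in 4.72%, and TGACGTCA in 0 of 11 and in 1.79%. The 32851 promoters leave out those of a single chromosome, which holds none of the 10 genes. The Nampt sequence covers the 160 bases before the start site (chr12:32820175-32820334, + strand), which hold no annotated exon. The other sequences are windows of 30 bases around a match at Nadk (its second start site, chr4:155563765-155563794, + strand), Sirt1 (chr10:63339059-63339088, - strand) and Sirt3 (chr7:140882312-140882341, - strand). Capitals mark matches on either strand, read 5′ to 3′ along the gene. A match is a run of letters and no evidence of binding.
Nampt: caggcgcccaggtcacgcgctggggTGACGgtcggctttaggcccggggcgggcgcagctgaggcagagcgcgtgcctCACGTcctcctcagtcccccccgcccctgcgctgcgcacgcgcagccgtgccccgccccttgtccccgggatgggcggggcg
Nadk: ccgctctcccCACGTGccctgcagcgcatg
Sirt1: aggggcgggtCACGTGACGgggtttaaatc
Sirt3: gggttgcggtCGTCAaggtaaccgcgttct
Nampt and Nadk, which rose, and Sirt1, which fell, each hold ACGTG, and TGACG stands in Nampt and Sirt3, which rose, and in Sirt1, which fell. The promoters of Nmnat1, which rose, and of Cd38, which fell in HIF2α AKO, hold no match. Whether the letters bear on the direction of a gene was not tested.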

How the data were processed

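Total RNA of iWAT was sequenced from 12 mice. The authors deposited raw read counts per gene, per sample and as 1 table; per the labels, reads were trimmed with Trim Galore 0.4.4, aligned to GRCm38 (mm10) with STAR 2.6.1d and counted with HTSeq 0.13.5, with DESeq2 1.30.0 also listed. The annotation and strand setting are not given in the sources used here. The 5 HTSeq tally rows (21.9 to 27.0% of each library's total) were left out.

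The deposited counts were tested with edgeR 4.0.16 in R 4.3.3: filterByExpr (minimum count 10, minimum total 15), TMM factors (0.829 to 1.20), 1 factor of 4 groups over all 12 libraries, the quasi-likelihood F test and Benjamini-Hochberg adjustment over 15306 genes, called at an adjusted p under 0.05. DESeq2 1.42.0, limma 3.58.1 (voom with quality weights), other scalings and filters, a replicate block, fits of only the groups compared and leaving out each library were tried as alternatives. The code was checked on simulated counts. Log2 CPM used a prior count of 2. Exon lengths, positions and overlaps came from GENCODE vM21 (GRCm38). All 10 members were named, and of 46 listed NAD genes those called and the highest and lowest per kb. The members and lists were chosen with earlier results of these data known. No 2 libraries were identical. Labels do not say whether the mice shared cages or litters, so p-values measure the spread between these mice. The files hold no columns without a sample.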

Additional observations from a re-analysis of the deposited data

How the results depend on the processing

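Upon cold, Nampt, Nmnat1, Nadk and Sirt3 were called in WT under all 22 alternatives, and Nmnat1, Nadk and Sirt3 in HIF2α AKO. Leaving out 1 library at a time gave 4 to 8 called genes of the 10 in WT (main 7), 4 without cold WT replicate 3 or without TN WT replicate 2, and 4 to 10 in HIF2α AKO (main 8), 4 without cold HIF2α AKO replicate 1 or without TN HIF2α AKO replicate 1. Without both libraries with high muscle markers it was 3 in HIF2α AKO (5 in WT), and without those and TN WT replicate 3, which had high epithelial markers, it was 5; fewer libraries entered these fits, named below as without 2 and without 3 libraries, and these alternatives were chosen after seeing the data. A looser rule (p under 0.15 before adjustment, log2 change beyond 0.2 either way) gave 1 gene each by genotype at TN, in the cold and for the interaction, against 0. Of all 15306 tested genes, 1321 passed that rule at TN, 1374 in the cold and 1349 for the interaction. Scaling by library size alone shifted the median of all genes upon cold to -0.33 in WT and -0.32 in HIF2α AKO, with 1429 genes called higher and 4459 lower in WT (main 2389 and 870) and 1516 and 4849 in HIF2α AKO (main 2381 and 1757), and turned Sirt5 in WT to -0.026; the other cold directions held. Over all tested genes, leaving out 1 library gave 1381 to 3722 calls upon cold in WT (main 3259) and 1613 to 4853 in HIF2α AKO (main 4138). A fit of only the groups compared gave 1752 in WT, and without 2 or 3 libraries HIF2α AKO had 1514 and 1834.

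The replicate block left 7 and 8 called genes of the 10 (2561 and 3313 of all genes). The labels do not say whether equal replicate numbers mark mice that belong together. Between groups, the correlation of deviations at equal replicate numbers was above 0.1 in 5 of 18 pairs and ranged from -0.43 to 0.39. With so few mice in each group, these correlations cannot decide whether the mice were paired. With the block, Cd38 at TN by genotype turned to 0.014 and Nnmt over both temperatures to 0.026.

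Per kb of the longest transcript, levels in TN WT were 77.9 for Nadk, 56.6 for Nnmt, 11.7 for Nnt, 7.11 for Sirt1, 6.92 for Nmnat3, 4.35 for Sirt3, 3.58 for Sirt5 and 2.65 for Nmnat1 CPM per kb.

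No genotype difference passed, and those near 0 changed sign. Over both temperatures Nnmt turned to 0.0073 with DESeq2, 0.0050 with no filter, 0.0076 with DESeq2 size factors, 0.19 with voom and 0.12 without 3 libraries. Nnt turned to -0.055 without 2 and -0.056 without 3 libraries, -0.051 with library size and -0.13 with voom. Nmnat3 turned to -0.065 without 2 libraries, -0.028 with library size and -0.082 with voom, and Sirt5 to -0.12 without 2 libraries. At TN, Nnmt turned to -0.074 and Cd38 to 0.023 without 2 libraries, Sirt1 to 0.0074 without 2 and 0.0025 without 3, Sirt3 to 0.018 without 3 and Nnt to -0.017 with voom. In the cold, Nampt turned to -0.13 without 2 or 3 libraries and -0.0078 with library size, and Nadk to -0.0095 without 2 and -0.0096 without 3. The Cd38 interaction turned to 0.049 with voom and 0.072 without 3 libraries. Leaving out single libraries gave ranges across 0. At TN they were -0.15 to 0.10 for Cd38, -0.25 to 0.054 for Nmnat3, -0.10 to 0.58 for Nnmt, -0.11 to 0.044 for Sirt1, -0.14 to 0.051 for Sirt3 and -0.32 to 0.11 for Sirt5. In the cold they were -0.30 to 0.040 for Cd38, -0.0096 to 0.19 for Nadk, -0.15 to 0.27 for Nampt, -0.21 to 0.0028 for Nnmt and -0.34 to 0.30 for Nnt. Over both temperatures they were -0.15 to 0.019 for Cd38, -0.065 to 0.080 for Nmnat3, -0.11 to 0.22 for Nnmt, -0.13 to 0.19 for Nnt and -0.045 to 0.20 for Sirt5. For the interaction they were -0.30 to 0.041 for Cd38, -0.19 to 0.0050 for Nmnat1 and -0.42 to 0.22 for Nnt. The cause of these sign changes was not tested.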
